A study of Homo sapiens with 4 samples.

Results

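This account concerns 43 interferon-stimulated genes, among them SAMD9L and its neighbour SAMD9, in SK-N-BE(2)C cells. They were chosen by gene symbol, and all 43 were found among the 55765 symbols of the count table under the symbols used here. SK-N-BE(2)C is an established human neuroblastoma cell line, 1 clone derived from a tumour with amplified MYCN. Cells received either 10 µM ATRA (all-trans retinoic acid, made from vitamin A) or ethanol, the solvent of ATRA, for 144 h, and each group had 2 libraries of total RNA depleted of ribosomal RNA. The labels name no interferon treatment. Whether the 2 libraries of a group stem from different cultures is not stated in the labels, and the p-values reflect only how far such libraries differ, which may be technical.

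Interferons are secreted proteins that cells release on viral infection. Type I interferons bind the receptor pair IFNAR1 and IFNAR2, whose kinases JAK1 and TYK2 phosphorylate STAT proteins such as STAT2, which joins IRF9 in a complex that binds the interferon-stimulated response element in the promoters of target genes. The targets code for sensors of foreign RNA and DNA, for enzymes that degrade RNA or stop translation, for proteins that hold back viral entry or release, and for the signalling proteins themselves. Many are also expressed at a low level without interferon. Retinoic acid is known to raise some of them in other cell types, and the RNA sensor RIG-I, coded by DDX58, owes its name (retinoic acid-inducible gene I) to such an observation.

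Except in SAMD9L, the promoter stretches shown here carry the letters by which these genes are usually recognised. The stretches are from the pair that differed most with ATRA and from 3 genes that differed little or the other way. They end at the base before the annotated start, run 5′ to 3′ on the gene's strand and come from RefSeq on GRCh38.p14, whereas the counts were made on hg19. Capitals mark GAAANNGAAA, a minimal form of the interferon-stimulated response element, on either strand; in SAMD9L they mark a stretch that differs from it by 1 letter. The stretches lie at chr7:93117980-93118179 for SAMD9, chr7:93148386-93148585 for SAMD9L, chr1:1013364-1013413 for ISG15, chr10:89392487-89392536 for IFIT1 and chr12:112938311-112938360 for OAS3, the first pair on the minus strand and the others on the plus strand.
SAMD9: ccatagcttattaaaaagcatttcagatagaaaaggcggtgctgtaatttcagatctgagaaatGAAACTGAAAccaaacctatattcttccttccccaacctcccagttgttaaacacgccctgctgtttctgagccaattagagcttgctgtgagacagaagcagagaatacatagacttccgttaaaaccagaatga
SAMD9L: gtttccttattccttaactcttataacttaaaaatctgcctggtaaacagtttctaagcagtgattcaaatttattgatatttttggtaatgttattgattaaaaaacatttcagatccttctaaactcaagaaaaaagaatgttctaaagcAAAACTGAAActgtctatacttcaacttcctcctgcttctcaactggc
ISG15: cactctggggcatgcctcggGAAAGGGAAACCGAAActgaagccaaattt
IFIT1: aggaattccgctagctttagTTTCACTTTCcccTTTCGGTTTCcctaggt
OAS3: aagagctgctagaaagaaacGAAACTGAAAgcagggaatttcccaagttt

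In SAMD9 the element begins 136 bases before the start. The SAMD9L window held no exact match, and its nearest stretch, 48 bases before the start, differs by G1A, counted from 1 at the 5′ end of the motif (the motif has G and the promoter has A). A stretch with exactly 1 letter different is common, being present in the window of 36.2% of 27305 genes. In windows of 300 bases (250 before and 50 from the start on), searched on both strands, GAAANNGAAA was present in 23 of the 34 members with a window (67.6%) and in 4.38% of all genes with one. The gamma-activated site TTCNNNGAA, an element of genes that respond to interferon gamma, was present in 9 of the 34 (26.5%) and in 9.38% of all. The retinoid receptor half-site AGGTCA was present in 3 of the 34 (8.82%), namely IFI27, IRF9 and MX1, and in 16.5% of all. The direct repeat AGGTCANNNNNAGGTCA, which holds that half-site at both ends, was present in 0 of the 34 and in 0.00732% of all. This exact repeat is so rare that its absence from the 34 is uninformative, and forms of it with other letters were not searched. ISG15 and IFIT1 each carried 2 copies of GAAANNGAAA in the stretches shown, those of ISG15 overlapping. Windows were matched by symbol, DDX58 through its current name RIGI, and 9 members had none.

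Library totals ranged from 12850462 to 19883465 counts. The members together took 0.0518% and 0.0502% of counts in ATRA replicates 1 and 2, and 0.0365% and 0.0448% in ethanol replicates 1 and 2. Libraries titled with a 2 stood apart from those without a number, with mitochondrial ribosomal RNA at 2.49% and 5.96% of counts in ATRA 1 and ethanol 1 and at 0.130% and 0.0291% in ATRA 2 and ethanol 2. Levels are given as CPM, read counts relative to the TMM-scaled library size, and fold changes as log2 of ATRA over ethanol with the standard error (SE) of the fit. The retinoid response itself was present: the retinoic acid hydroxylase gene CYP26A1 had 140 and 267 CPM with ATRA and no read with ethanol, at least 2294-fold higher when set against 3 counts over the ethanol group. The receptor gene RARB rose from 1.54 and 1.78 CPM to 34.4 and 66.9 CPM (adjusted p 0.0319, edgeR quasi-likelihood).

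Markers of the labelled cell type were present, with none of 12 sympathoadrenal genes at 0 reads. Their summed level was 4865 and 5532 CPM in ATRA 1 and 2 and 8342 and 7094 CPM in ethanol 1 and 2. Large parts of the ethanol sum were MYCN (3739 and 2910 CPM, 2319 and 1778 CPM with ATRA) and CHGA (2511 and 1605 CPM, 187 and 235 CPM with ATRA). CHGA and GATA3 passed as lower with ATRA (log2 -3.29 and -2.64, adjusted p 0.0381 each, edgeR quasi-likelihood). The 12 genes did not all move the same way. ELAVL4 was at log2 1.66 ± 0.28, PHOX2A at 0.92 ± 0.33 and STMN2 at 0.77 ± 0.56, none called, and the others were below 0. Markers of fibroblasts and pericytes summed to 134 and 349 CPM with ATRA and 233 and 553 CPM with ethanol over 6 genes. None of the 6 was at 0 in all libraries and none was called. COL1A1 was at log2 5.26 ± 1.29, PDGFRA at 2.47 ± 0.86, LUM at -2.22 ± 0.58, DCN at -0.64 ± 0.81 and PDGFRB at -0.46 ± 0.43. DCN was at 40.9 and 246 CPM with ATRA and 139 and 310 CPM with ethanol. PDGFRB was at 48.4 and 73.5 CPM against 53.2 and 115 CPM. COL1A2 was not tested. Markers of leukocytes, cells rich in interferon-stimulated genes, summed to 22.6 and 8.91 CPM with ATRA and to 5.85 and 3.17 CPM with ethanol over 13 genes. Of these 13, CD3D, LYZ, CD68 and FCGR3A had no read in any library, CD14 was the largest single part (19.03 and 6.76 CPM with ATRA, 2.69 and 1.64 CPM with ethanol), and the pan-leukocyte gene PTPRC lay at 1.35, 0.239, 0.770 and 0 CPM in ATRA 1, ATRA 2, ethanol 1 and ethanol 2. The part of other cell types in the results was not tested. In bulk RNA, more cells expressing a gene and more RNA per cell cannot be told apart.

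Did ATRA raise the interferon-stimulated genes? SAMD9L passed the test and rose 70.7-fold, its neighbour SAMD9 was 9.92-fold higher without passing, and no other member was past the threshold. The best-known members had few reads in both groups: ISG15 was under 5 CPM, IFIT1 under 4 CPM and MX1 under 1 CPM in each library, and MX2 and IFI44L had no read at all. Of the 43 members, 30 passed the filter on low counts; 1 of these was called higher and 0 lower (edgeR quasi-likelihood, Benjamini-Hochberg over 18900 genes), where 0.545% of all genes were called higher and 0.153% lower. The rise of SAMD9L was already known from these data when the genes were listed. DESeq2, which called 1370 genes in all, called 3 members higher and 0 lower. With limma-voom, which called 50 in all, 0 members were called in either direction. At an unadjusted p under 0.05 (edgeR quasi-likelihood) 5 members were higher, against 9.43% of all genes, and 1 (OAS3) was lower, against 6.49%.

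**Figure D1:**
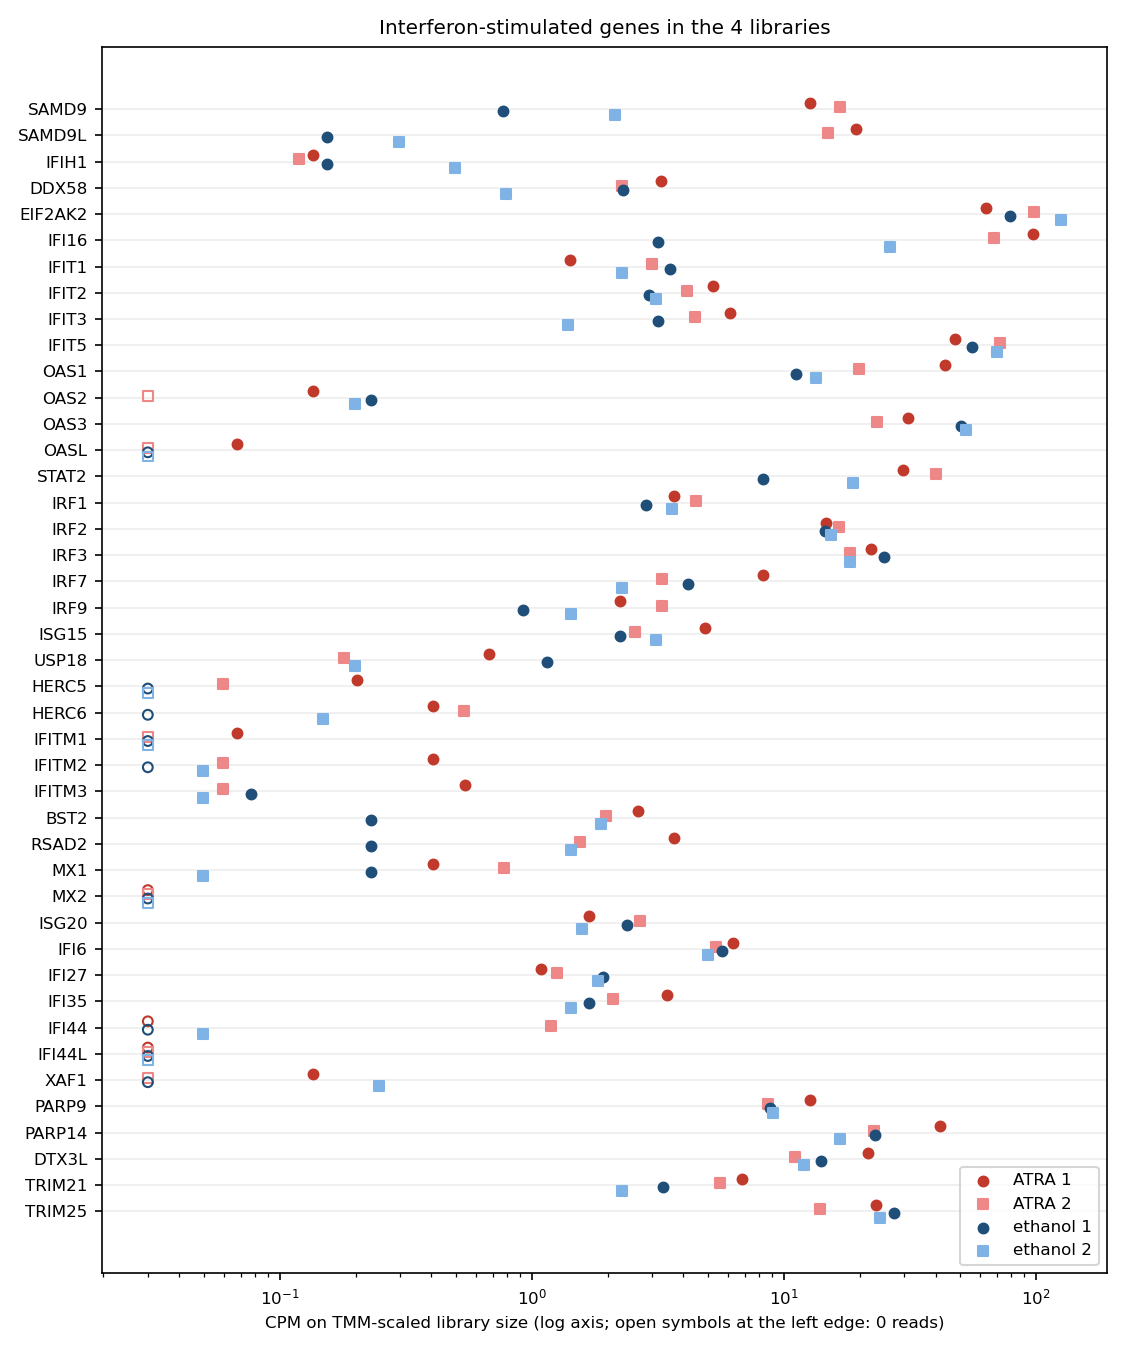
Level of each of the 43 members in each library, in CPM on a log axis, in order of role; circles are replicate 1, squares replicate 2, red ATRA and blue ethanol, and open symbols at the left edge mark 0 reads. SAMD9 and SAMD9L have both ATRA libraries to the right of both ethanol libraries by a wide gap. IFI16 also has both ATRA libraries to the right, but by less than its ethanol libraries lie from each other. IFIT5, IRF2, IRF3 and IFI6 have all 4 libraries close together.

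SAMD9L and SAMD9 are adjacent, related genes on chromosome 7 that code for large cytoplasmic proteins which restrict poxviruses and slow cell growth; no protein-coding gene lies between them in RefSeq. SAMD9L had 19.3 and 15.0 CPM in ATRA 1 and 2 and 0.154 and 0.297 CPM in ethanol 1 and 2, which is 285 and 251 reads against 2 and 6. Both ATRA libraries were far above both ethanol libraries. The log2 fold change was 6.14 ± 0.54 (SE, n = 2 per group; adjusted p 0.0274, edgeR quasi-likelihood), and the ratio of the summed counts was 70.6 with a 95% counting interval of 35.6 to 164. By p-value SAMD9L ranked 17th of all genes tested. With limma-voom it was not called (adjusted p 0.0515).

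SAMD9 had 12.7 and 16.8 CPM with ATRA and 0.770 and 2.13 CPM with ethanol, in reads 188 and 280 against 10 and 43. The groups did not overlap. The log2 fold change was 3.31 ± 0.58, with an adjusted p of 0.0711 (edgeR quasi-likelihood). DESeq2 called it (adjusted p 4.14e-06), and so did each fit without 1 library, with log2 fold changes from 2.74 to 4.26 and adjusted p from 1.1e-05 to 0.0101 (edgeR quasi-likelihood). Those fits called between 870 and 1442 genes in all against 132 with all 4 libraries, so a call in them is no added support. With ethanol SAMD9 was higher than SAMD9L per length of exon, at 0.212 against 0.0316 CPM per kb (means of 2 libraries), and with ATRA the pair were at 2.15 and 2.41 CPM per kb.

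Of the sensors of foreign nucleic acid, none was called, where 0.545% of all genes were called higher and 0.153% lower. IFI16, a nuclear DNA sensor of the HIN-200 family, had 97.0 and 68.4 CPM with ATRA and 3.16 and 26.4 CPM with ethanol. Both ATRA libraries were above both ethanol libraries, but the ethanol libraries were themselves far apart. The log2 fold change of 2.47 ± 0.87 was not called (adjusted p 0.249, edgeR quasi-likelihood). It was 1.60 without ethanol replicate 1 and 4.72 without ethanol replicate 2, so its size depends on which ethanol library is kept. DESeq2 called it (adjusted p 0.0176), and limma-voom did not (adjusted p 0.163). With every gene of at least 1 count kept it was not called either (adjusted p 0.723, edgeR quasi-likelihood).

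DDX58, the RNA sensor RIG-I, had 3.25 and 2.27 CPM with ATRA and 2.31 and 0.793 CPM with ethanol, and ATRA 2 lay just under ethanol 1. Its log2 fold change was 0.85 ± 0.69 (adjusted p 0.658, edgeR quasi-likelihood). IFIH1, coding for the related sensor MDA5, had 2 reads in each ATRA library and 2 and 10 with ethanol, and was not tested. EIF2AK2, the kinase PKR that halts translation on double-stranded RNA, was at 63.4 and 97.9 CPM with ATRA and 79.1 and 126 CPM with ethanol (log2 -0.35 ± 0.35). The groups overlapped for DDX58 and EIF2AK2 alike.

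The IFIT genes code for proteins that bind viral RNA, and the 4 measured here lie close together on chromosome 10. IFIT1 had 1.42 and 2.99 CPM with ATRA and 3.54 and 2.28 CPM with ethanol (log2 -0.39 ± 0.61), so the groups overlapped. IFIT3 had 6.10 and 4.43 CPM against 3.16 and 1.39 CPM (log2 1.22 ± 0.59, edgeR quasi-likelihood adjusted p 0.394). IFIT2 had 5.22 and 4.13 CPM against 2.93 and 3.12 CPM (log2 0.62 ± 0.47). IFIT5 was at 47.6 and 71.7 CPM with ATRA and at 55.8 and 70.1 CPM with ethanol. Per length of exon IFIT5 was the highest of the 4 in every library. None of the 4 was called, where 0.545% of all genes were called higher and 0.153% lower.

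The OAS genes code for enzymes that make 2′-5′ oligoadenylate on binding double-stranded RNA. OAS1, OAS3 and OAS2 are adjacent on chromosome 12, and the log2 fold changes of the first pair had opposite signs. OAS1 had 43.4 and 19.8 CPM with ATRA and 11.2 and 13.4 CPM with ethanol (log2 1.36 ± 0.43, unadjusted p 0.0195, adjusted p 0.203, edgeR quasi-likelihood). OAS3 had 31.1 and 23.4 CPM with ATRA and 50.6 and 53.0 CPM with ethanol (log2 -0.93 ± 0.27, unadjusted p 0.0127, adjusted p 0.170, edgeR quasi-likelihood). Neither gene overlapped between the groups, and neither was called. Over all genes, 23.8% were higher without overlap and 21.7% lower, while 0.545% were called higher and 0.153% lower.

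Within each library, the reads of OAS1 divided by those of OAS3 came to 1.40 and 0.847 with ATRA and to 0.221 and 0.252 with ethanol. Scaling between libraries does not enter this ratio. The difference in the ratio was not tested. Without ATRA replicate 1 the log2 fold change of OAS1 was 0.68, and without ATRA replicate 2 it was 1.81. OAS2 had 2 and 0 reads with ATRA and 3 and 4 with ethanol, and OASL 1 read in all.

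**Figure D2:**
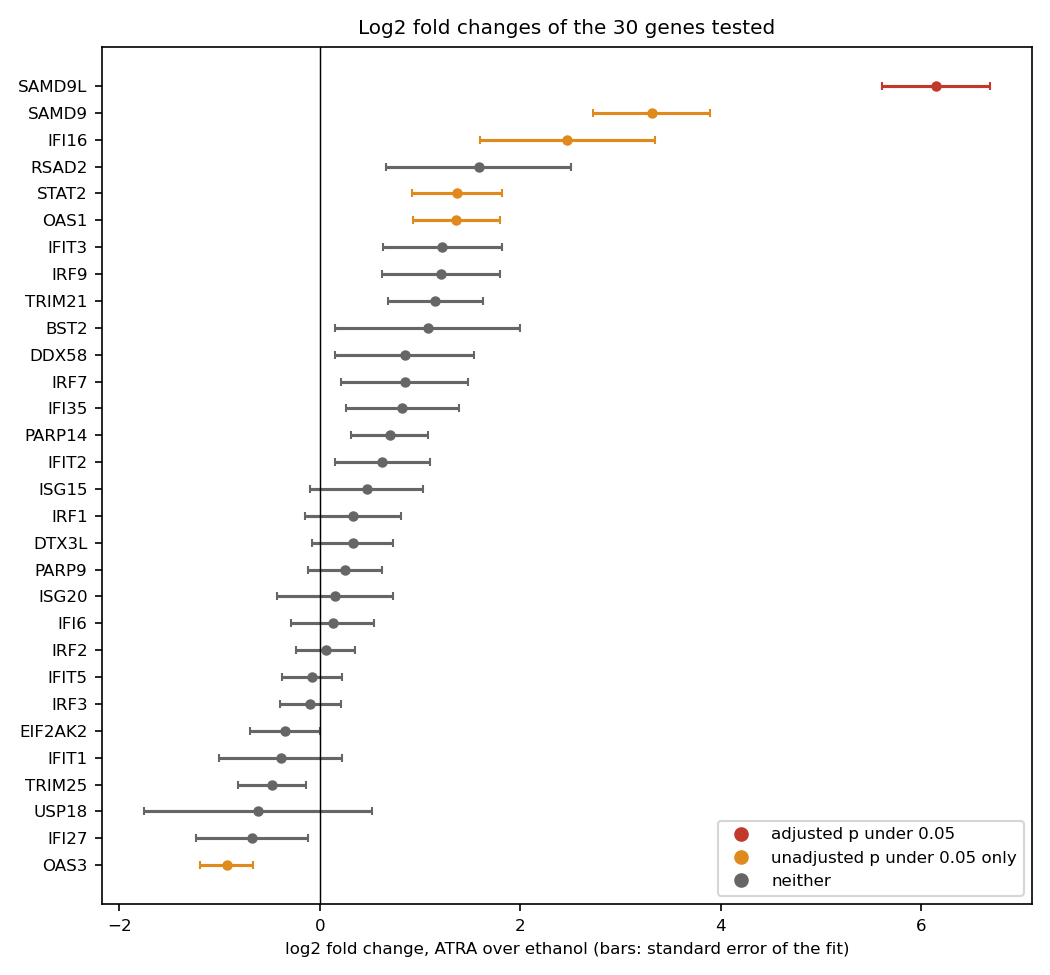
Log2 fold change of ATRA over ethanol for the 30 members tested, with the standard error of the fit as bars; red passes the adjusted threshold, orange has an unadjusted p under 0.05 only, grey neither. SAMD9L stands at 6.14 and SAMD9 at 3.31, and OAS3 is lowest at -0.93.

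Among the transcription factors, STAT2, a part of the complex that binds the response element, had 29.7 and 40.3 CPM with ATRA and 8.24 and 18.8 CPM with ethanol. The groups did not overlap. Its log2 fold change was 1.37 ± 0.45 (unadjusted p 0.0224, adjusted p 0.216, edgeR quasi-likelihood), and it was 0.85 without ethanol replicate 1 and 2.10 without ethanol replicate 2. IRF9, the DNA-binding part of that complex, was at 2.24 and 3.29 CPM with ATRA and 0.924 and 1.44 CPM with ethanol (log2 1.21 ± 0.59, adjusted p 0.393, edgeR quasi-likelihood).

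IRF1, an activator that retinoids raise in some other cells, was at 3.66 and 4.49 CPM with ATRA and 2.85 and 3.62 CPM with ethanol. Its log2 fold change was 0.33 ± 0.48 (adjusted p 0.845, edgeR quasi-likelihood), although the groups just failed to overlap. IRF7, which amplifies interferon gene expression, was at 8.26 and 3.29 CPM against 4.16 and 2.28 CPM (log2 0.85 ± 0.63), with overlap. IRF2, an antagonist of IRF1, and IRF3, the factor that sensors activate first, were at log2 0.06 ± 0.29 and -0.09 ± 0.30. All 6 factors passed the filter and 0 were called, where 0.545% of all genes were called higher and 0.153% lower. At an unadjusted p under 0.05 STAT2 was higher, against 9.43% of all genes, and none was lower, against 6.49% (edgeR quasi-likelihood).

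ISG15 codes for a ubiquitin-like modifier, HERC5 for a ligase that attaches it and USP18 for the protease that removes it. ISG15 had 4.88 and 2.57 CPM with ATRA and 2.23 and 3.12 CPM with ethanol (log2 0.47 ± 0.56), and the groups overlapped. USP18 was under 2 CPM everywhere (log2 -0.61 ± 1.14). HERC5 had 4 reads with ATRA and 0 with ethanol, and HERC6, its neighbour on chromosome 4, had 15 and 3, which gives a ratio of 5.27 (95% counting interval 1.49 to 28.4). These reads are too few for the test.

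Genes that act at membranes also had few reads. IFITM3, which blocks viral fusion in endosomes, had 8 and 1 reads with ATRA and 1 and 1 with ethanol, and its near-identical relatives IFITM1 and IFITM2 had 1 and 8 reads over all 4 libraries; reads of these 3 adjacent genes may be split or dropped in counting. BST2, or tetherin, which holds budding virions, was at 2.64 and 1.97 CPM with ATRA and 0.231 and 1.88 CPM with ethanol (log2 1.08 ± 0.92, not called). It was at log2 0.25 without ethanol replicate 1 and at 3.29 without ethanol replicate 2. RSAD2, or viperin, was at 3.66 and 1.56 CPM against 0.231 and 1.44 CPM (log2 1.58 ± 0.93). For both, on a log scale, ethanol 1 was the library apart and the other 3 lay closer together. RSAD2 was at log2 3.46 without ethanol replicate 2 and at 0.81 without ethanol replicate 1. In GENCODE 29 its exons overlap those of CMPK2 on the opposite strand.

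The dynamin-like GTPase gene MX1 had 6 and 13 reads with ATRA and 3 and 1 with ethanol. The ratio of its summed reads was 5.01 (95% counting interval 1.66 to 20.2). MX2 had no read. IFI44 had 20 reads in ATRA 2, 1 in ethanol 2 and 0 in the other 2 libraries, so its reads came from the libraries numbered 2. IFI6, an antiviral protein of mitochondria and the endoplasmic reticulum, was at 6.30 and 5.38 CPM with ATRA and 5.70 and 5.00 CPM with ethanol (log2 0.13 ± 0.41). IFI27 was at 1.08 and 1.26 CPM against 1.92 and 1.83 CPM (log2 -0.68 ± 0.56). IFI35 and ISG20 were at log2 0.82 ± 0.57 and 0.15 ± 0.58, and XAF1, a pro-apoptotic gene, had 2 reads with ATRA and 5 with ethanol.

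PARP9 and DTX3L, whose proteins form an ADP-ribosylation and ubiquitin ligase complex, lie side by side on chromosome 3 with exons that overlap on opposite strands, so their reads can be told apart only if strand was used in counting. PARP9 was at log2 0.25 ± 0.37 and DTX3L at 0.33 ± 0.41, and PARP14 nearby at 0.70 ± 0.38. In all 3 genes ATRA 1 was the highest library, and for PARP9 and DTX3L ATRA 2 was the lowest. TRIM21, a cytosolic antibody receptor, was at 6.84 and 5.56 CPM with ATRA and 3.31 and 2.28 CPM with ethanol (log2 1.15 ± 0.48, unadjusted p 0.0514, adjusted p 0.319, edgeR quasi-likelihood). TRIM25, the ligase that activates RIG-I, was at 23.2 and 13.9 CPM against 27.5 and 24.1 CPM (log2 -0.47 ± 0.34). Neither TRIM gene overlapped between the groups. Over all genes, 23.8% were higher and 21.7% were lower without overlap.

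**Figure D3:**
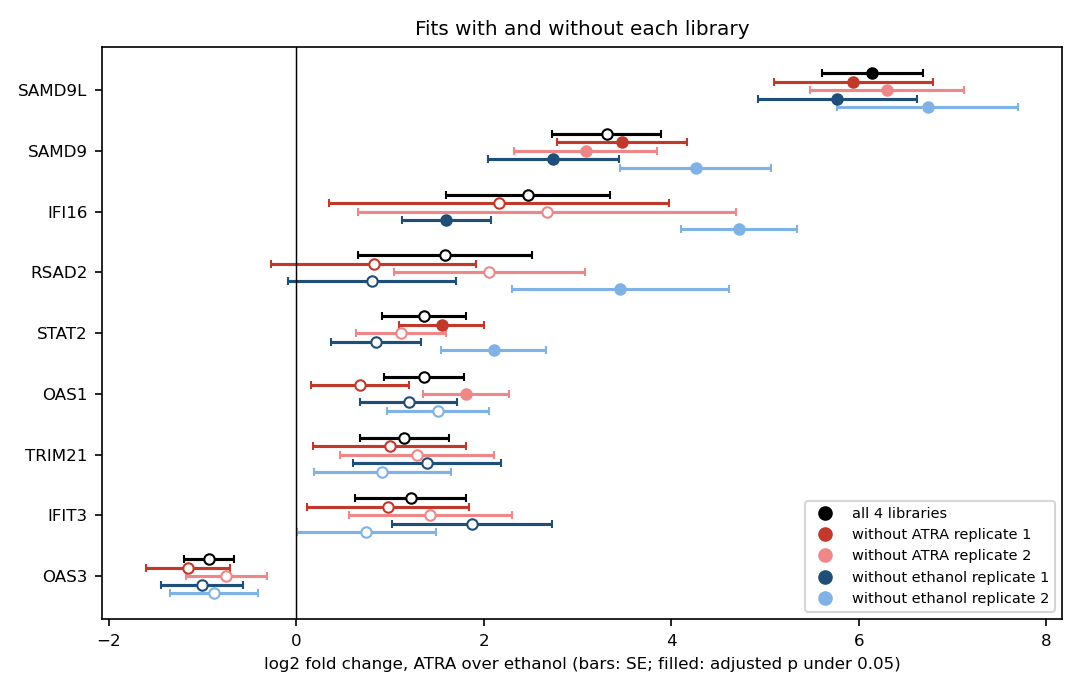
Log2 fold change with its SE for 9 members, from all 4 libraries (black) and with each library left out in turn; filled points pass an adjusted p of 0.05 in that fit. SAMD9L and SAMD9 are filled in all 4 fits that leave out a library, IFI16 moves from 1.60 to 4.72 with the ethanol library left out, and OAS3 stays on the negative side. A filled point in a fit that leaves out a library is no added support.

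Seen as a list, the 30 members tested had a median log2 fold change of 0.55, against 0.01 over all genes tested, and 0.71 and 0.34 within replicates 1 and 2. Of the 30, 22 were above 0, where 50.8% of all genes were, and 10 were above 1, where 11.3% were. Below -1 there was no member, against 7.63% of all genes. In 13 members both ATRA libraries were above both ethanol libraries, against 23.8% of genes, and in 3 members (OAS3, IFI27 and TRIM25) both were below, against 21.7%. At an unadjusted p under 0.05 there were 5 members higher (SAMD9, SAMD9L, IFI16, OAS1 and STAT2), against 9.43% of genes, and 1 lower, against 6.49%. These counts describe members that passed the filter, which favours those that were high in 1 group, and no test was made over the list.

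ATRA 1 was the highest of the 4 libraries for 16 of the 30 members, where it was highest for 26.4% of all genes, and ethanol 1 was the lowest for 12, where it was lowest for 26.3%. Leaving out ATRA replicate 1 brought the members' median to 0.31, and leaving out ATRA replicate 2 brought it to 0.81.

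**Figure D4:**
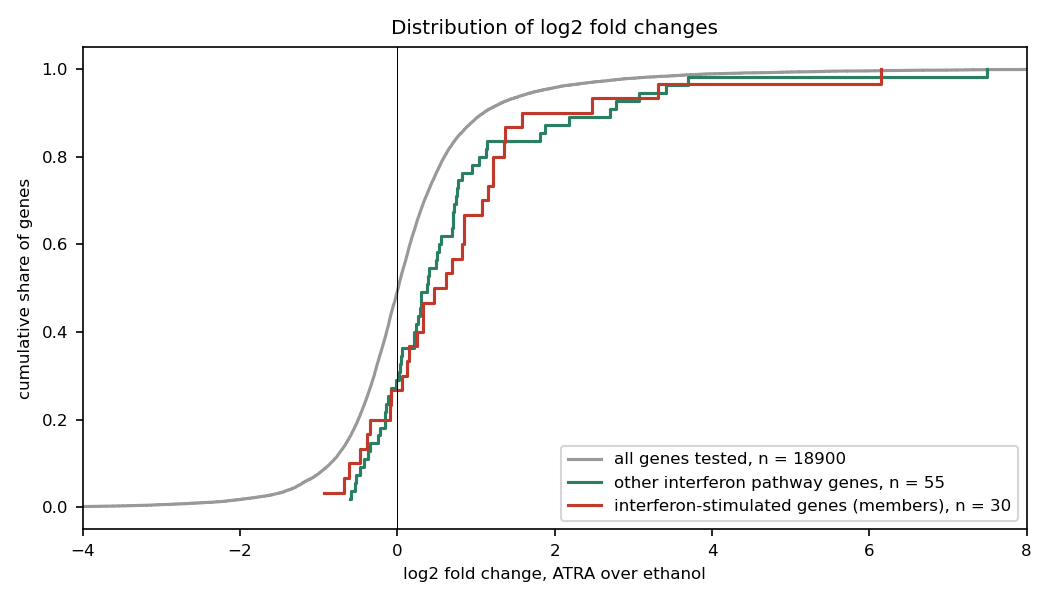
Cumulative share of genes by log2 fold change of ATRA over ethanol, for all 18900 genes tested (grey), 55 other interferon pathway genes (green) and the 30 members tested (red); the axis is shortened to -4 to 8. The red and green lines lie to the right of the grey line over most of the range, with medians of 0.55, 0.37 and 0.01.

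Upstream of these genes, the pathway was covered by 105 further genes. The 21 interferon genes were close to absent, with 14 of them at no read in any library and none passing the filter; IFNB1, the interferon gene that sensors switch on first, had 2 reads in ATRA 2 and 0 elsewhere. Of the 105 genes 55 were tested and 0 called in either direction (edgeR quasi-likelihood), where 0.545% of all genes were called higher and 0.153% lower. At an unadjusted p under 0.05 there were 12 higher, against 9.43% of all genes, and 1 lower, against 6.49%. DESeq2, which called 1370 genes in all, called 3 higher and 0 lower, and limma-voom, which called 50 in all, called 0. The median log2 fold change was 0.37, and 39 of the 55 were above 0, where 50.8% of all genes were.

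Receptor and kinase genes were expressed in both groups. IFNAR1 was at 64.0 and 77.1 CPM with ATRA and 43.4 and 54.6 CPM with ethanol (log2 0.53 ± 0.26), and IFNAR2 at 7.79 and 5.92 CPM against 4.39 and 3.37 CPM (log2 0.82 ± 0.44). JAK1 was at 100.1 and 112 CPM with ATRA and 32.8 and 63.5 CPM with ethanol (log2 1.14 ± 0.36, unadjusted p 0.0193, adjusted p 0.203, edgeR quasi-likelihood). The groups overlapped for none of these 3. TYK2 was at 77.4 and 53.9 CPM with ATRA and 80.3 and 65.9 CPM with ethanol (log2 -0.15 ± 0.28), with overlap. SOCS3, an inhibitor of JAK kinases, was at 2.37 and 0.658 CPM against 0.0770 and 0.248 CPM (log2 3.07 ± 1.02, adjusted p 0.219, edgeR quasi-likelihood). Of the 13 tested genes of this list, 9 were above 0, against 50.8% of all genes, and 8 had both ATRA libraries above both ethanol libraries, against 23.8%.

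Among the 18 genes of nucleic acid sensing, 9 were tested. TRAF3, an adaptor that leads from sensors to IRF3, was at 49.1 and 47.2 CPM with ATRA and 71.2 and 75.4 CPM with ethanol (log2 -0.61 ± 0.23, unadjusted p 0.0374, adjusted p 0.275, edgeR quasi-likelihood). MAVS, the mitochondrial adaptor of RIG-I, was at 59.9 and 56.5 CPM against 66.3 and 69.5 CPM (log2 -0.22 ± 0.23), and MYD88 at log2 0.70 ± 0.44. TLR3 had 12 and 1 reads with ATRA and 0 and 1 with ethanol. Of the other IRF genes, IRF5 was at log2 0.05 ± 0.56.

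Of 47 further interferon-stimulated genes 31 were tested and 0 called (edgeR quasi-likelihood), where 0.545% of all genes were called higher and 0.153% lower. At an unadjusted p under 0.05 there were 10 higher, against 9.43% of all genes, and 0 lower, against 6.49%. TRIM5, a retroviral restriction factor, was at 18.1 and 9.87 CPM with ATRA and 1.92 and 2.13 CPM with ethanol (log2 2.78 ± 0.48, adjusted p 0.0704, edgeR quasi-likelihood). SLFN5, a Schlafen gene, was at 1.29 and 1.496 CPM with ATRA and had no read with ethanol, at least 15.5-fold higher against 3 counts over the ethanol group (adjusted p 0.0862, edgeR quasi-likelihood). For both genes the groups were well apart.

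**Figure D5:**
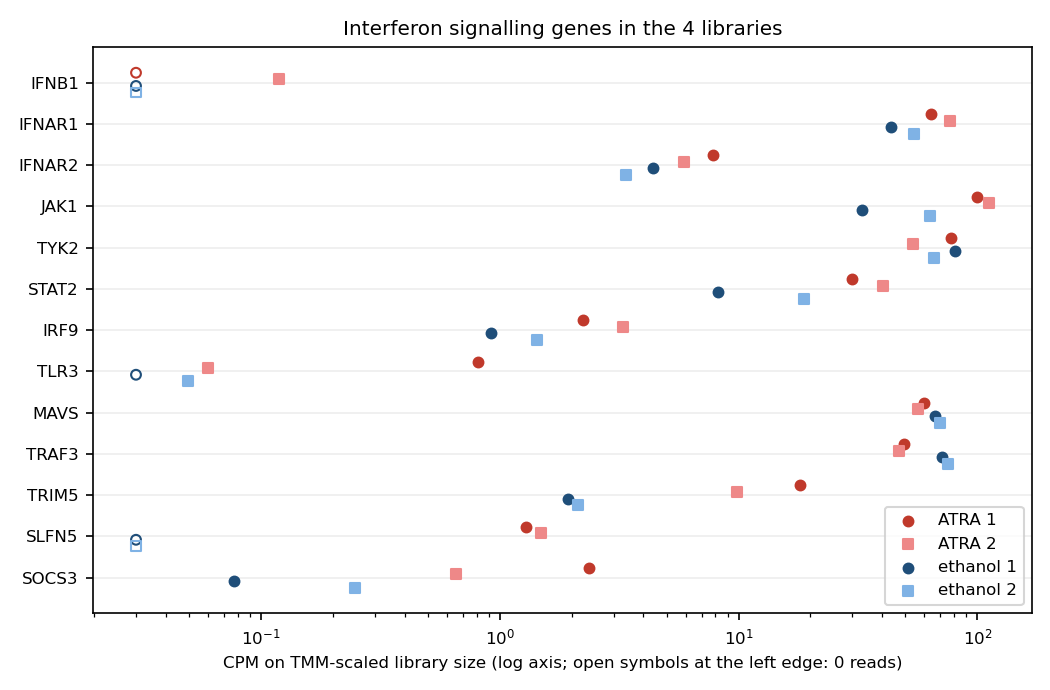
Level of 13 interferon signalling and target genes in each library, in CPM on a log axis, with circles for replicate 1, squares for replicate 2, red for ATRA, blue for ethanol and open symbols for 0 reads. JAK1, STAT2, TRIM5 and SLFN5 have both ATRA libraries to the right, TRAF3 has both to the left, and TYK2 overlaps.

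The levels of SAMD9L over the 4 libraries were compared, by Euclidean distance of centred log2 CPM, with those of other tested genes. Only the 13755 genes with a mean log2 CPM of at least 1 entered, so genes at lower levels could not be found. The closest were CD177, DLG2, DKK2, FREM1 and DUSP6, at distances from 0.384 to 0.824. None of the 5 is among the 43 members or the 105 other interferon pathway genes listed here. Few of the 13755 genes are, so this absence is uninformative. DLG2, a synaptic scaffold gene, had 353 and 400.7 CPM with ATRA and 6.85 and 11.6 CPM with ethanol, and DUSP6, a phosphatase of ERK kinases, 401 and 396 CPM against 7.47 and 18.9 CPM. The 4 libraries set this likeness mostly by the difference between the groups.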

How the data were processed

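Counts are raw reads per gene symbol as the authors deposited them, not normalized. The submitters' processing notes name STAR 2.5.2b, featureCounts 1.5.1 and the build hg19; per the labels' protocols, RNA was depleted of ribosomal RNA and libraries were directional. The sources used here do not state the annotation, the strand setting or how shared reads were handled. In GENCODE 29 the exons of 13 members overlap a gene on the opposite strand. Those of 5 members overlap a gene on the same strand, where strand cannot tell the reads apart. Genes passed filterByExpr (minimum count 10), were scaled by TMM and tested with edgeR 4.0.16 (R 4.3.3; quasi-likelihood, robust, treatment as the sole term, 2 residual degrees of freedom, two-sided, Benjamini-Hochberg over 18900 genes, threshold 0.05). SE is the size of the log2 fold change over the square root of F. Within-replicate differences use a prior count of 2. Intervals are exact at 95% and, like bounds, cover counting error only. Per-length levels use merged exons of GENCODE 29; gene order and promoters are RefSeq's. The procedure was tested on simulated data. Alternatives were other scalings, no filter, DESeq2 1.42.0, limma-voom 3.58.1, each library left out, and the title number as a block. Members, lists and the naming rule (every member may be named; from other lists, fixed genes and the 2 of smallest p) were chosen with earlier results of these data known. A few genes that the rule names are not reported here.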

Additional observations from a re-analysis of the deposited data

How the results depend on the processing

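The count of genes called in all, 132, became 1370 when DESeq2 was used, 1821 when genes with 1 count or more were kept, 50 with limma-voom and 870 to 1442 without 1 library. Under the same settings the members called higher, 1, became 3, 4, 0 and 3 to 5, and the other pathway genes called higher, 0, became 3, 9, 0 and 2 to 6. SAMD9L and SAMD9 were the 2 members called in each fit without 1 library. With the title number as a block 4098 genes, 6 members higher, 1 member lower (OAS3), 13 other pathway genes higher and 2 lower were called. Deviations from the group means of same-numbered libraries correlated at 0.632 across genes, but the labels give only a shared number, so this pairing is a hint from the data. The cause of these shifts was not tested. The 3 other scalings kept each count within 1.5 times. Log2 fold changes that changed sign without 1 library ranged from -1.03 to 0.044 for IFIT1, -0.41 to 0.18 for IFIT5, -0.074 to 0.85 for ISG15, -0.054 to 0.49 for PARP9, -0.23 to 0.72 for DTX3L, -0.040 to 0.14 for IRF2, -0.28 to 0.10 for IRF3, -1.82 to 1.03 for USP18, -0.23 to 0.44 for ISG20 and -0.71 to 0.046 for EIF2AK2. Members with few reads, such as IFIT1 and ISG15, could show only large differences at this depth.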

Other observations

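SP100, a nuclear body gene induced by interferon that did not pass the filter, had 27 and 6 reads in ATRA 1 and ethanol 1 and 0 in both libraries numbered 2. SP110, a related gene, had 40 and 7 reads against 6 and 4. These genes were named after their values were seen, and the differences were not tested.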
